A study of Meleagris gallopavo with 18 samples.

Results

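Genes whose products build cilia and flagella, 5 in number, were followed through the male reproductive tract of the turkey, Meleagris gallopavo. They were chosen for their known roles from genes that the study had listed as differing between these tissues, with earlier results of these data known, so their directions and the counts of calls among them are a description and not independent evidence. They are 5 of 56037 genes: CCNO (MSTRG.52294) and PLK4 (MSTRG.34956), which act on centrioles, TTC26 (MSTRG.2586), which acts in intraflagellar transport, and LRRC6 (MSTRG.33700) and ZMYND10 (MSTRG.15145), which act in the assembly of dynein arms. The merged annotation holds 21 transcripts of these genes among 103847 transcripts, and the counts of the transcripts summed to the count of their gene in 18 of 18 libraries. RNA-seq was done on 3 tissues, named T (testis), E (epididymis) and DD (ductus deferens), of the same 6 males (birds 2, 11, 12, 14, 15 and 16), with 1 library per tissue and bird. All birds were 38 weeks old, had been photostimulated from 26 weeks of age with 14 h of light and 10 h of darkness, and produced semen. No untreated or sexually inactive males are in the design, so each comparison is between tissues of the same animals. The libraries were made from pieces of whole tissue, in which fewer cells of a type and less RNA per cell cannot be told apart.

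Motile cilia and sperm flagella share one axoneme, a ring of microtubule doublets that grows from a centriole. PLK4 is the kinase that starts the formation of new centrioles, in dividing cells and in multiciliated cells, and CCNO, cyclin O, is needed in mouse and human for the mass production of centrioles in multiciliated cells. TTC26, also called IFT56, is a subunit of the IFT-B complex, which carries building material into the growing cilium. LRRC6 and ZMYND10 work in the cytoplasm, where dynein motors are put together before they are sent to the axoneme, and loss of either in human leaves cilia and sperm tails without dynein arms. In birds, spermatids in the testis build flagella, and the efferent ductules of the epididymal region carry ciliated cells.

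The total number of counts per library ranged from 64143451 to 118625345, and 3 counts, taken as the smallest level that the depth can show, correspond to 0.0187 to 0.0676 CPM, the counts scaled to the size of the library after TMM normalization. This limit covers the counting error only. In correlations of log2(CPM + 1) over 30452 genes, the epididymis of bird 12 (0.807 to 0.829 with the other epididymides) and the testis of bird 11 (0.82 to 0.904 with the other testes) stood apart from their groups, and the fold changes of the 5 genes are also given without both. The testis of bird 12 came next, with 0.82 to 0.932 with the other testes, and was kept when both were left out. Of 17 markers of spermatogenic cells, 7 had a symbol paired with a row. Their summed level was 735 to 2049 CPM in T, 117 to 193 CPM in E and 15.8 to 27.9 CPM in DD. In E most of this sum was SPACA9 and MAK, with means of 97.7 and 25.6 CPM. HORMAD1, PCSK4, KIF18B, SLC26A8 and MEIOC averaged 0.807 to 11.9 CPM there. HORMAD1 and MEIOC had 9.16 and 0.807 CPM in E, against 371 and 85.9 CPM in T. For multiciliated cells 6 of 10 markers were paired, with sums of 367 to 857, 271 to 651 and 7.29 to 14.1 CPM in T, E and DD. In T most of this sum was TEKT2 and CCDC113 (means of 256 and 128 CPM), which were called higher in T than in E. DNAH5, CDHR3 and RSPH9 averaged 1.19, 2.80 and 40.3 CPM in T and were called lower there than in E. DNAI1 was not called between these tissues, so the sum does not rank multiciliated cells between T and E. Whether these genes mark multiciliated cells in the testis, where spermatids build flagella with the same axoneme, was not checked. For absorptive epithelium 5 of 6 were paired, with sums of 70.8 to 173, 553 to 1687 and 119 to 1069 CPM in T, E and DD. Most of this sum in T was CLGN, with a mean of 68.9 CPM. In E CLGN had 417 CPM, beside 418 CPM of LRP2. That CLGN marks absorptive cells was not checked, so the sums cannot be read as the level of these cells alone. In DD nearly all of the absorptive sum was KRT19, a keratin of simple epithelia, with a mean of 571 CPM, while CLGN, CDHR2, LRP2 and HNF4A averaged 19.2, 16.1, 1.83 and 0.397 CPM there, and CLGN, LRP2 and HNF4A were called lower in DD than in T. Without counts were MEIOC in 4, DNAH5 in 3 and PCSK4 in 1 of the 6 libraries of the ductus deferens, and SLC26A8 in the epididymis of bird 12. The summed levels of the spermatogenic and the multiciliated markers were lowest in the ductus deferens, as were 4 of the 5 genes, and their part in the results was not tested. No marker of Sertoli, Leydig, smooth muscle or blood cells was paired with a row, so the share of these cells was not checked.

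The 5 genes had 3 orders of tissues. CCNO was highest in the epididymis and lowest in the testis. PLK4 and ZMYND10 were highest in the testis, intermediate in the epididymis and lowest in the ductus deferens. For ZMYND10 the levels in the testis and the epididymis overlapped. It was not called between them with the bird as a block or without both libraries that stood apart. TTC26 and LRRC6 were lowest in the ductus deferens, and their levels in the testis and the epididymis overlapped and did not pass the test. A gene was called where edgeR's quasi-likelihood test gave an adjusted p below 0.01 and the log2 fold change was beyond 1.

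**Figure D1:**
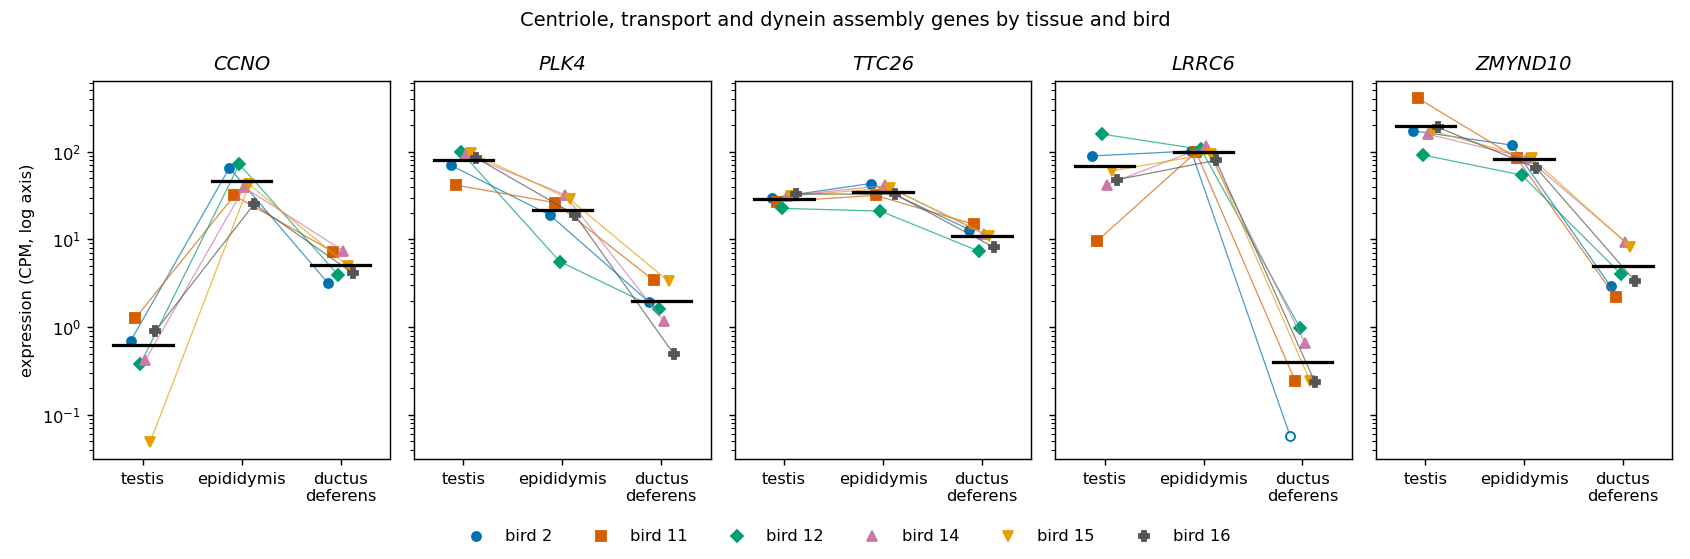
Expression in CPM (log axis) of CCNO, PLK4, TTC26, LRRC6 and ZMYND10 by tissue. Each symbol is 1 library, thin lines join the tissues of a bird, thick bars are means of 6 birds, and the open symbol is a library with 0 counts, drawn at the level of 3 counts. CCNO peaks in the epididymis in all 6 birds, and the other 4 genes are lowest in the ductus deferens in all 6 birds.

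Between the testis and the epididymis, 3 of the 5 genes were called, 2 higher and 1 lower in the testis. Of the 28489 genes tested, 23.0% were called higher and 12.9% lower in the testis. The median log2 fold change of the 5 genes was -0.21, against 0.299 for all genes tested. After TMM normalization the levels of 2 of the 5 genes, CCNO and PLK4, did not overlap between these tissues, whereas 36.1% of the tested genes did not overlap. Only 2 of the 5 genes (CCNO and PLK4) were called with the bird as a block or without both libraries that stood apart. Over all 28489 genes tested, 10237 were called in either direction without a block and 6262 with the bird as a block. Without both libraries, 13395 of 30042 genes were called.

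Between the testis and the ductus deferens, all 5 genes were called, 4 higher and 1 lower in the testis. Of the 27550 genes tested, 30.4% were called higher and 14.9% lower in the testis. The median log2 fold change was 5.33 for the 5 genes, against 0.587 for all genes tested. None of the 5 genes overlapped between these tissues, and neither did 44.3% of the tested genes.

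Between the epididymis and the ductus deferens, all 5 genes were called, all higher in the epididymis. Of the 22695 genes tested, 4.22% were called higher and 1.12% lower in the epididymis. The median log2 fold change was 3.36 for the 5 genes, against 0.049 for all genes tested. The levels of the 5 genes did not overlap, compared with 7.56% of the tested genes that did not. With the bird as a block, 3 of the 5 genes (CCNO, LRRC6 and ZMYND10) were called. Over all 22695 genes tested, 626 were called with the block, 487 of them higher, against 1211 without it, 957 of them higher.

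**Figure D2:**
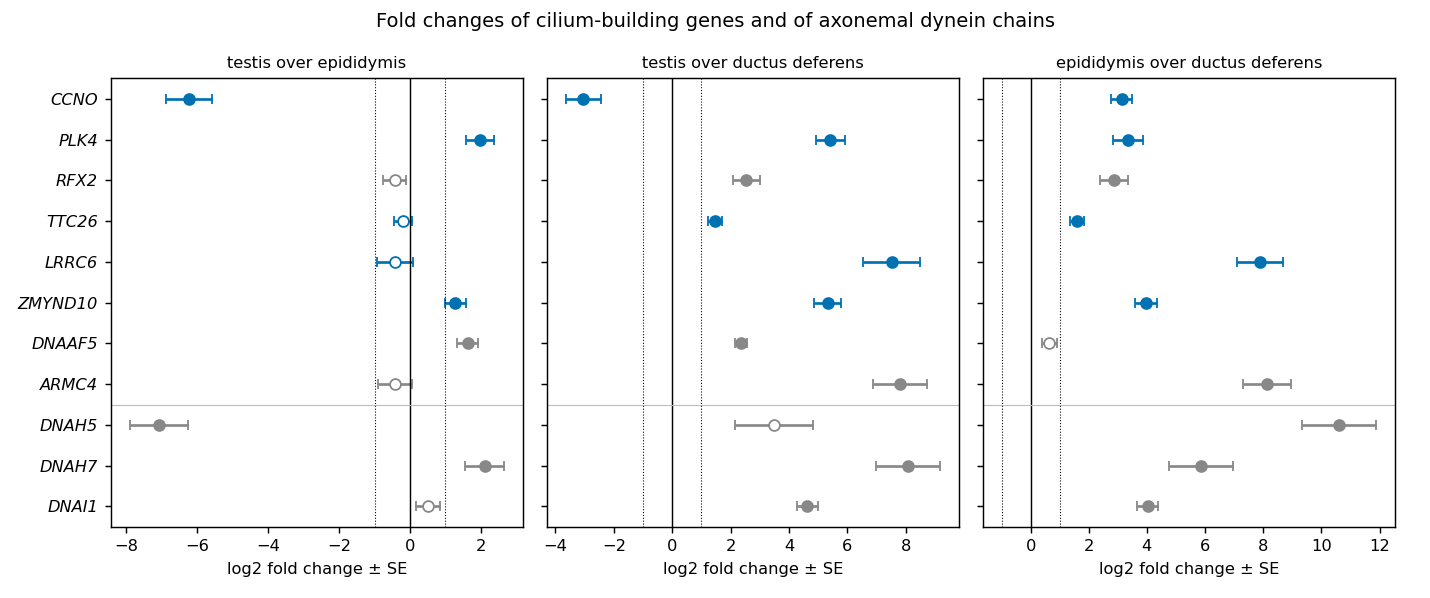
Log2 fold changes with standard errors (edgeR, 6 libraries per tissue) of the 5 genes (blue) and of other genes of the cilium-building and axonemal dynein lists (grey) in the 3 comparisons. Filled symbols passed the threshold, dotted lines mark a log2 fold change of 1 in either direction, and the 3 genes under the thin line are dynein chains. CCNO and DNAH5 lie far to the left in the comparison of the testis with the epididymis.

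CCNO was the only one of the 5 genes that was called lower in the testis than in both other tissues. In the testis its lowest, median and highest levels were 0.0495, 0.556 and 1.27 CPM. In the epididymis they were 25.4, 40.8 and 72.04 CPM, and in the ductus deferens 3.15, 4.55 and 7.42 CPM. The 3 tissues did not overlap, and the order was the same in all 6 birds.

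The mean of CCNO was 0.619 ± 0.431 CPM in T, 46.0 ± 18.7 CPM in E and 5.13 ± 1.79 CPM in DD (SD, n = 6 each). The mean in the testis was thus 74.4-fold lower than in the epididymis, with a log2 fold change of -6.23 ± 0.65 (SE) and an adjusted p of 7.43e-06 in edgeR. T was also lower than DD, with a log2 fold change of -3.04 ± 0.61 (SE, edgeR adjusted p = 0.000663). The epididymis exceeded the ductus deferens by a log2 fold change of 3.13 ± 0.37 (SE), with an edgeR adjusted p of 0.0001. In the testis the counts of CCNO ran from 5 in bird 15 to 93, all above the limit of 3 counts. The coefficient of variation was 69.7% in T, 40.6% in E and 34.8% in DD.

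PLK4 fell along the tract. In the testis its lowest, median and highest levels were 41.6, 89.3 and 99.4 CPM. In the epididymis they were 5.58, 22.7 and 32.3 CPM, and in the ductus deferens 0.497, 1.77 and 3.404 CPM. After TMM normalization each tissue lay above the next without overlap, in all 6 birds. The testis of bird 11 had 2849 counts of 81438457, with a TMM factor of 0.841. The epididymis of bird 14 had 3117 counts of 77356394, with a TMM factor of 1.247. By counts over total counts alone, this epididymis lay above that testis. The gap between the testis and the epididymis thus depends on the scaling.

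The mean of PLK4 was 81.1 ± 22.2 CPM in T, 21.8 ± 9.54 CPM in E and 1.99 ± 1.17 CPM in DD (SD, n = 6 each). The log2 fold change was 1.97 ± 0.39 (SE, edgeR adjusted p = 0.000877) for the testis over the epididymis. It was 5.42 ± 0.49 (SE, edgeR adjusted p = 1.32e-06) for the testis over the ductus deferens. For the epididymis over the ductus deferens it was 3.36 ± 0.52 (SE, edgeR adjusted p = 0.000758), and with the bird as a block 3.43, with an edgeR adjusted p of 0.0101, which did not pass the threshold. Both libraries that stood apart were the lowest of their tissue for this gene. The epididymis of bird 12 had 5.58 CPM, against 18.9 to 32.3 CPM in the other 5 epididymides, and the testis of bird 11 had 41.6 CPM, against 69.7 to 99.4 CPM in the other 5 testes. Without both libraries the log2 fold change of the testis over the epididymis was 1.97 (edgeR adjusted p = 1.36e-05).

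TTC26 had the smallest changes of the group and the smallest spread between birds in the testis. In the testis its lowest, median and highest levels were 22.6, 30.5 and 33.0 CPM. In the epididymis they were 21.03, 35.6 and 43.4 CPM, and in the ductus deferens 7.31, 11.2 and 14.8 CPM. The testis and the epididymis overlapped, and every library of the ductus deferens was below all libraries of both other tissues.

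The mean of TTC26 was 29.2 ± 3.83 CPM in T, 34.8 ± 8.15 CPM in E and 10.9 ± 2.85 CPM in DD (SD, n = 6 each). The testis over the epididymis gave a log2 fold change of -0.21 ± 0.26 (SE, edgeR adjusted p = 0.518), with a higher level in the testis of 2 of 6 birds, and the sign turned to 0.04 with library size alone and to 0.14 with DESeq2. Relative to the median of all genes in each of these fits, the value was -0.51 with TMM, -0.52 with library size alone and -0.53 with DESeq2. The testis over the ductus deferens gave 1.46 ± 0.24 (SE, edgeR adjusted p = 0.000128), higher in 6 of 6 birds. The epididymis over the ductus deferens gave 1.59 ± 0.25 (SE, edgeR adjusted p = 0.000804), higher in 6 of 6 birds, and 1.61 with the bird as a block, with an edgeR adjusted p of 0.0111, which did not pass the threshold.

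LRRC6 had few counts in the ductus deferens, below every library of the other 2 tissues. In the testis its lowest, median and highest levels were 9.62, 54.2 and 159 CPM. In the epididymis they were 79.8, 100.2 and 115 CPM, and in the ductus deferens 0, 0.246 and 0.985 CPM. The ductus deferens held 0 to 78 counts per library, and the library without counts was that of bird 2, where 3 counts would be 0.0577 CPM. The range of the testis enclosed that of the epididymis.

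The mean of LRRC6 was 68.0 ± 51.3 CPM in T, 99.4 ± 11.8 CPM in E and 0.396 ± 0.359 CPM in DD (SD, n = 6 each). Its coefficient of variation was 75.5% in the testis, whereas it was 11.8% in the epididymis. The log2 fold change of the testis over the epididymis was -0.42 ± 0.50 (SE, edgeR adjusted p = 0.504), with a higher level in the testis in 1 of 6 birds. It was 7.53 ± 0.98 (SE, edgeR adjusted p = 2.27e-05) for the testis over the ductus deferens and higher in 6 of 6 birds. It was 7.89 ± 0.78 (SE, edgeR adjusted p = 2.7e-05) for the epididymis over the ductus deferens and higher in 6 of 6 birds. The testes of 2 birds set the spread, with 9.62 CPM in bird 11 and 159 CPM in bird 12, while the other 4 testes lay between 42.2 and 89.5 CPM.

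ZMYND10 fell along the tract as PLK4 did. In the testis its lowest, median and highest levels were 91.8, 172 and 407 CPM. In the epididymis they were 54.1, 84.9 and 119 CPM, and in the ductus deferens 2.20, 3.70 and 9.39 CPM. The testis overlapped with the epididymis through bird 12, whose testis had 91.8 CPM, and bird 2, whose epididymis had 119 CPM. The TMM factor of the testis of bird 12 was the largest of the 18 libraries (1.73, with 0.689 the smallest), which lowers its CPM. The overlap thus depends on the scaling. Within every bird the testis was above the epididymis.

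The mean of ZMYND10 was 199 ± 108 CPM in T, 82.2 ± 22.1 CPM in E and 5.02 ± 3.02 CPM in DD (SD, n = 6 each). The log2 fold change of the testis over the epididymis was 1.29 ± 0.30 (SE, edgeR adjusted p = 0.00272). With the bird as a block it was 1.21, with an edgeR adjusted p of 0.0111, and without the testis of bird 11 and the epididymis of bird 12 it was 0.98, with an edgeR adjusted p of 0.00125, so in neither case did it pass both thresholds. The testis of bird 11 had 407 CPM, against 91.8 to 191 CPM in the other 5 testes. The log2 fold change was 5.33 ± 0.46 (SE, edgeR adjusted p = 8.2e-07) for the testis over the ductus deferens and 3.95 ± 0.38 (SE, edgeR adjusted p = 1.88e-05) for the epididymis over the ductus deferens, both higher in 6 of 6 birds.

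The 2 libraries that stood apart did not depart from their groups in the same way for each gene. In the testis of bird 11 the level of LRRC6 was 8.28-fold lower and that of PLK4 2.14-fold lower than the mean of the other 5 testes, while ZMYND10 was 2.59-fold and CCNO 2.60-fold higher and TTC26 was at 0.908 of that mean. In this library the summed spermatogenic and multiciliated markers were the highest of the 6 testes (2049 and 857 CPM), but their members went opposite ways. TEKT2, a tektin, had 604 CPM there, against 161 to 206 CPM in the other 5 testes, and HORMAD1, SPACA9, PCSK4, KIF18B and CCDC113 were also the highest of the 6, while the multiciliated markers DNAH5 (0.073 CPM) and CDHR3 (1.40 CPM) and the spermatogenic markers MEIOC (37.4 CPM) and MAK (10.3 CPM) were the lowest. In the epididymis of bird 12 the level of PLK4 was 4.49-fold lower, that of TTC26 1.78-fold lower and that of ZMYND10 1.62-fold lower than the mean of the other 5 epididymides, while CCNO was 1.77-fold higher and LRRC6 was at 1.09 of that mean. The TMM factors of the testis of bird 11 (0.841) and this epididymis (0.689) were the smallest of their tissues. That raises their CPM, so these levels and ranks depend on the scaling. By counts over total counts alone, the epididymis of bird 12 was the lowest for LRRC6 and not the highest for CCNO. In this library the summed spermatogenic and absorptive markers were the lowest of the 6 epididymides (117 and 553 CPM), and the summed multiciliated markers were the highest (651 CPM). That sum was carried by DNAH5 (407 CPM, against 86.6 to 159 CPM in the other 5) and RSPH9 (183 CPM), and TEKT2 was also the highest, while the other 3 multiciliated markers, DNAI1 (13.2 CPM), CCDC113 (10.97 CPM) and CDHR3 (3.04 CPM), were the lowest of the 6 epididymides. The members of the spermatogenic and absorptive sums did not all go one way in this library either. Of the 7 spermatogenic markers, 3 (MAK, SLC26A8 and KIF18B) were the lowest of the 6 epididymides, while HORMAD1 ranked 5 from the lowest. Of the absorptive markers, LRP2, HNF4A, CDHR2 and CLGN were the lowest, while KRT19 ranked 5 from the lowest. The part of these cell types in the levels was not tested. Without both libraries the log2 fold change of the testis over the epididymis was -6.25 for CCNO (edgeR adjusted p = 7.16e-06), -0.21 for TTC26 (edgeR adjusted p = 0.291) and -0.11 for LRRC6 (edgeR adjusted p = 0.803). For the testis over the ductus deferens it was -3.38 for CCNO, 5.53 for PLK4, 1.46 for TTC26, 7.73 for LRRC6 and 4.99 for ZMYND10 without both. For the epididymis over the ductus deferens it was 2.83, 3.52, 1.65, 7.77 and 3.99 for the same genes in that order, and all 5 genes were called in both comparisons.

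**Figure D3:**
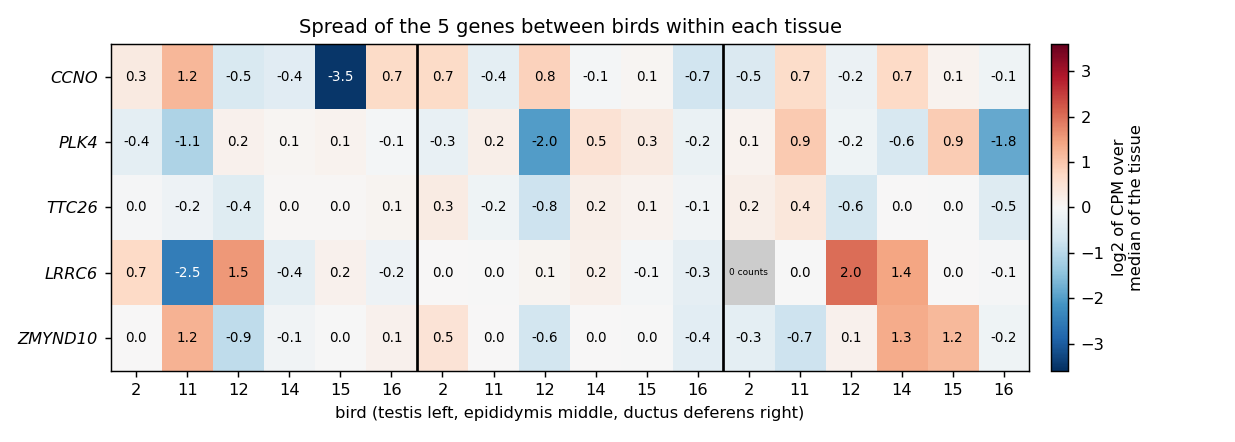
Log2 of the CPM of each library over the median of its tissue for the 5 genes, with birds in columns (testis left, epididymis middle, ductus deferens right). Red is above and blue below the median of the tissue, and grey marks 0 counts. The widest departures are CCNO in the testis of bird 15 (-3.49), LRRC6 in the testis of bird 11 (-2.49) and PLK4 in the epididymis of bird 12 (-2.02), and TTC26 stays within 0.76 of its medians.

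Within a tissue, the levels of 2 genes were compared over the 6 birds for all 30 pairs of genes and tissues. No pair had an adjusted p under 0.05 by the exact permutation test over 720 orders, and 3 pairs had an unadjusted p under 0.05. In the testis PLK4 and ZMYND10 ran against each other, with Pearson's r = -0.911 (exact p = 0.0181, adjusted p = 0.333) and Spearman's rho = -0.886 (exact p = 0.0333, adjusted p = 0.438), and r = -0.745 without the 2 testes farthest from the median of PLK4. PLK4 and CCNO in the testis gave r = -0.869 (exact p = 0.0222, adjusted p = 0.333) and rho = -0.886 (exact p = 0.0333, adjusted p = 0.438), r = -0.634 without the 2 testes farthest from the median of CCNO, and r = -0.501 with CPM by library size alone. In the epididymis TTC26 and ZMYND10 rose and fell together over the birds, with r = 0.841 (exact p = 0.0375, adjusted p = 0.375), rho = 0.829 (exact p = 0.0583, adjusted p = 0.438) and r = 0.501 without the 2 epididymides farthest from the median of TTC26. None of these 3 pairs held after the correction.

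The 3 lists of cilium-building genes (centriole and multiciliated program, intraflagellar transport, dynein assembly) held 90 symbols, of which 8 could be paired with a row of the counts: the 5 genes and RFX2, DNAAF5 and ARMC4. The study had picked these genes because they differed between these tissues, so their directions are not independent evidence. RFX2 is a transcription factor of cilium genes, DNAAF5 acts with LRRC6 and ZMYND10 in the assembly of dyneins, and ARMC4 helps to dock the outer dynein arm. Of the 8 genes, 3 were called higher and 1 lower in T against E, where 23.0% of all genes tested were called higher and 12.9% lower. In T against DD 7 were called higher and 1 lower, against 30.4% and 14.9% of all genes tested, and in E against DD 7 higher and 0 lower, against 4.22% and 1.12%. With the bird as a block, 4 of the 8 (CCNO, LRRC6, ZMYND10 and ARMC4) were called in the last of these comparisons. The block called 626 of all 22695 genes tested there, 487 of them higher, against 1211 without it.

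ARMC4 had the same order of tissues as LRRC6, with 53.7 ± 33.9 CPM in T, 78.2 ± 26.4 CPM in E and 0.258 ± 0.226 CPM in DD (SD, n = 6 each). Its log2 fold change was 7.80 ± 0.93 (SE, edgeR adjusted p = 1.17e-05) for the testis over the ductus deferens and -0.43 ± 0.48 (SE, edgeR adjusted p = 0.477) for the testis over the epididymis. RFX2 likewise passed in both comparisons with the ductus deferens and not between the other tissues, with a log2 fold change of 2.54 ± 0.45 for the testis (SE, edgeR adjusted p = 0.000269) and of 2.86 ± 0.48 for the epididymis (SE, edgeR adjusted p = 0.00144). With the bird as a block the value for the epididymis was 3.08, with an edgeR adjusted p of 0.0149, which did not pass. DNAAF5 was higher in the testis than in both other tissues, by log2 fold changes of 1.63 ± 0.30 (SE, edgeR adjusted p = 0.000438) over the epididymis and 2.37 ± 0.20 (SE, edgeR adjusted p = 6.25e-07) over the ductus deferens. The epididymis over the ductus deferens gave 0.64 ± 0.25 for DNAAF5 (SE, edgeR adjusted p = 0.151).

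The axonemal dyneins that the assembly factors prepare were represented by 3 of 9 listed chains. DNAH5, a heavy chain of the outer arm of motile cilia, was 1.19 ± 0.937 CPM in T, 169 ± 119 CPM in E and 0.108 ± 0.194 CPM in DD (SD, n = 6 each), and of the 5 genes only CCNO was also lower in the testis than in the epididymis by the test. The log2 fold change of DNAH5 for the testis over the epididymis was -7.09 ± 0.83 (SE, edgeR adjusted p = 1.81e-05). Its mean in the epididymis rested in part on bird 12, with 407 CPM, against 122 ± 27.1 CPM (SD, n = 5) in the others, and without both libraries that stood apart the log2 fold change was -6.27 (edgeR adjusted p = 1.56e-06). DNAH7, a heavy chain of the inner arm, was 119 ± 59.2 CPM in T, 29.1 ± 14.4 CPM in E and 0.455 ± 0.447 CPM in DD (SD, n = 6 each), the order of PLK4 and ZMYND10. Its log2 fold change was 2.11 ± 0.55 (SE, edgeR adjusted p = 0.0051) for the testis over the epididymis, and 2.08 with the bird as a block, where it did not pass (edgeR adjusted p = 0.0365). Without both libraries it was 2.14 (edgeR adjusted p = 3.83e-05). DNAI1, an intermediate chain of the outer arm, had 46.4 ± 12.7 CPM in T and 34.6 ± 12.8 CPM in E (SD, n = 6 each), with a log2 fold change of 0.51 ± 0.34 (SE, edgeR adjusted p = 0.225).

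The genes most like each of the 5 were found by Pearson's coefficient of log2(CPM + 1) over the 18 libraries, which share 3 tissues and 6 birds, among the 83 genes with a paired symbol. For PLK4 they were DNAH7 (0.98), NDC80 (0.973) and CCDC113 (0.968), and for ZMYND10 SPACA9 (0.982), DRC7 (0.966) and CCDC113 (0.966). For LRRC6 they were ARMC4 (0.983), IQUB (0.965) and DRC7 (0.927), and for TTC26 ARMC4 (0.917), DRC7 (0.914) and DNAI1 (0.907). For CCNO they were CAT (0.94), AQP9 (0.917) and LGMN (0.915). Of all these genes only ARMC4 is on the lists of cilium-building genes, of which 3 besides the 5 genes had a paired symbol. Of the other 30451 genes past the filter, 31 were past 0.95 for PLK4, 54 for ZMYND10, 33 for LRRC6, 2 for TTC26 and 18 for CCNO. By Spearman's coefficient these counts were 22, 38, 0, 0 and 19, and the likeness of DRC7 was 0.582 to LRRC6 and 0.626 to TTC26. Among the 5 genes themselves, PLK4 and ZMYND10 had the highest coefficient (0.904), and the coefficients of CCNO with the other 4 lay between -0.3 and 0.231. These coefficients pool the 3 tissues and mix differences between tissues with those between birds. Within a tissue, Pearson's r of the CPM of PLK4 and ZMYND10 was -0.911 in T, 0.434 in E and -0.015 in DD.

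The transcripts of the 5 genes fell into 2 kinds. CCNO had 1 transcript (ENSMGAT00000008350), and in PLK4 transcript MSTRG.34956.1 held at least 99.9% of the counts in every library, so for these the gene and the transcript carry the same counts. TTC26 had 10 transcripts, LRRC6 5 and ZMYND10 3, and how their counts were divided between transcripts of one gene is an estimate of the tool that made them. Of the 21 transcripts, 2 were called between the testis and the epididymis (CCNO and PLK4, among 13 that passed the filter), against 15.6% of all transcripts tested. Between the testis and the ductus deferens 8 of 12 were called, against 25.2% of all transcripts tested, and these were the transcripts of CCNO and PLK4 and 3 each of LRRC6 and ZMYND10. Between the epididymis and the ductus deferens 2 of 11 were called (that of CCNO and MSTRG.33700.1 of LRRC6), against 1.01%. With the bird as a block, edgeR called 0, 2 and 0 of them in the same comparisons, while 2, 8 and 6 had an unadjusted p under 0.05. The calls over all transcripts were not counted for the blocked fit, so these counts have no share to be set against.

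In ZMYND10 all 3 transcripts carried counts in the testis. Transcript MSTRG.15145.2 had 4572 to 12279 counts in the 6 testes, 0 to 6298 in the 6 epididymides and 0 in all 6 libraries of the ductus deferens, where the gene itself had 152 to 824 counts. Its mean level in the testis was 86.9 CPM, 1507-fold above the level of 3 counts in the shallowest library of the ductus deferens. That figure covers the depth only. A count of 0 can also come from the estimated division between transcripts, so it is not a lower bound of the fold change. In the epididymis only bird 12 had 0 counts, and the mean was 28.3 CPM, 490.5-fold above the same level of 3 counts. The transcript missed the filter of the comparison of the epididymis with the ductus deferens. Transcript MSTRG.15145.1 held 18.1% of the summed counts in the testis, against 81.4% in the ductus deferens, and 100% of the counts in the epididymis of bird 12. The tissues overlapped in this share, since it was 40.5% in the testis of bird 12, against 6.68 to 21.8% in the other testes, and 13.9% in the ductus deferens of bird 16, against 75.5 to 100% in the others there.

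The share of MSTRG.15145.2 in the counts of ZMYND10 was 42.7% ± 6.75 in T, 30.3% ± 20.04 in E and 0% in DD (SD, n = 6 each). For each gene the share was tested for the transcript with the most counts summed over the 18 libraries. MSTRG.15145.2 was thus chosen mainly through the testis, with 49253 counts in T, 16736 in E and 0 in DD. The p-values of its share come from the same libraries and are a description, not independent evidence. By the two-sided exact permutation test, adjusted over 9 comparisons of shares, the testis differed from the ductus deferens by 42.7 percentage points (exact p = 0.00216, adjusted p = 0.0195), the smallest p that the assignments of 6 against 6 libraries allow. With the birds paired, the two-sided sign-flip test of this difference gave an exact p of 0.0312 (adjusted p = 0.281). This p is the smallest that the sign flips of 6 pairs allow, so a single share could not pass after the adjustment over 9 comparisons. The epididymis differed from the ductus deferens by 30.3 points (exact p = 0.0152, adjusted p = 0.0682), and by 36.3 points without the epididymis of bird 12 (exact permutation test, adjusted p = 0.00974). That library was the only epididymis without counts of this transcript, so without it no epididymis shared the 0% of DD. The p without it was thus fixed in advance at the smallest possible and adds no support. The testis and the epididymis differed by 12.4 points (exact p = 0.201, adjusted p = 0.362).

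In LRRC6 transcript MSTRG.33700.4 held most of the counts in all 6 testes (53.0 to 65.3%) and in 5 epididymides, where its highest share was 66.7%. In the epididymis of bird 12 it held 10.1%, and MSTRG.33700.1 held 59.7%. This library thus had another division of the counts. Its level of LRRC6 was within the range of the other epididymides after TMM normalization, where its factor was the smallest (0.689). By counts over total counts alone (4725 of 64456026) it lay below all other epididymides, so its place depends on the scaling. In the ductus deferens the share rested on 21 to 78 counts in 4 libraries and ran from 0 to 100%. The differences of the share between tissues were 6.08 points for the testis over the epididymis (exact permutation test, adjusted p = 0.916), 8.32 for the testis over the ductus deferens (exact permutation test, adjusted p = 0.857) and 2.24 for the epididymis over the ductus deferens (exact permutation test, adjusted p = 0.981), and none passed.

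**Figure D4:**
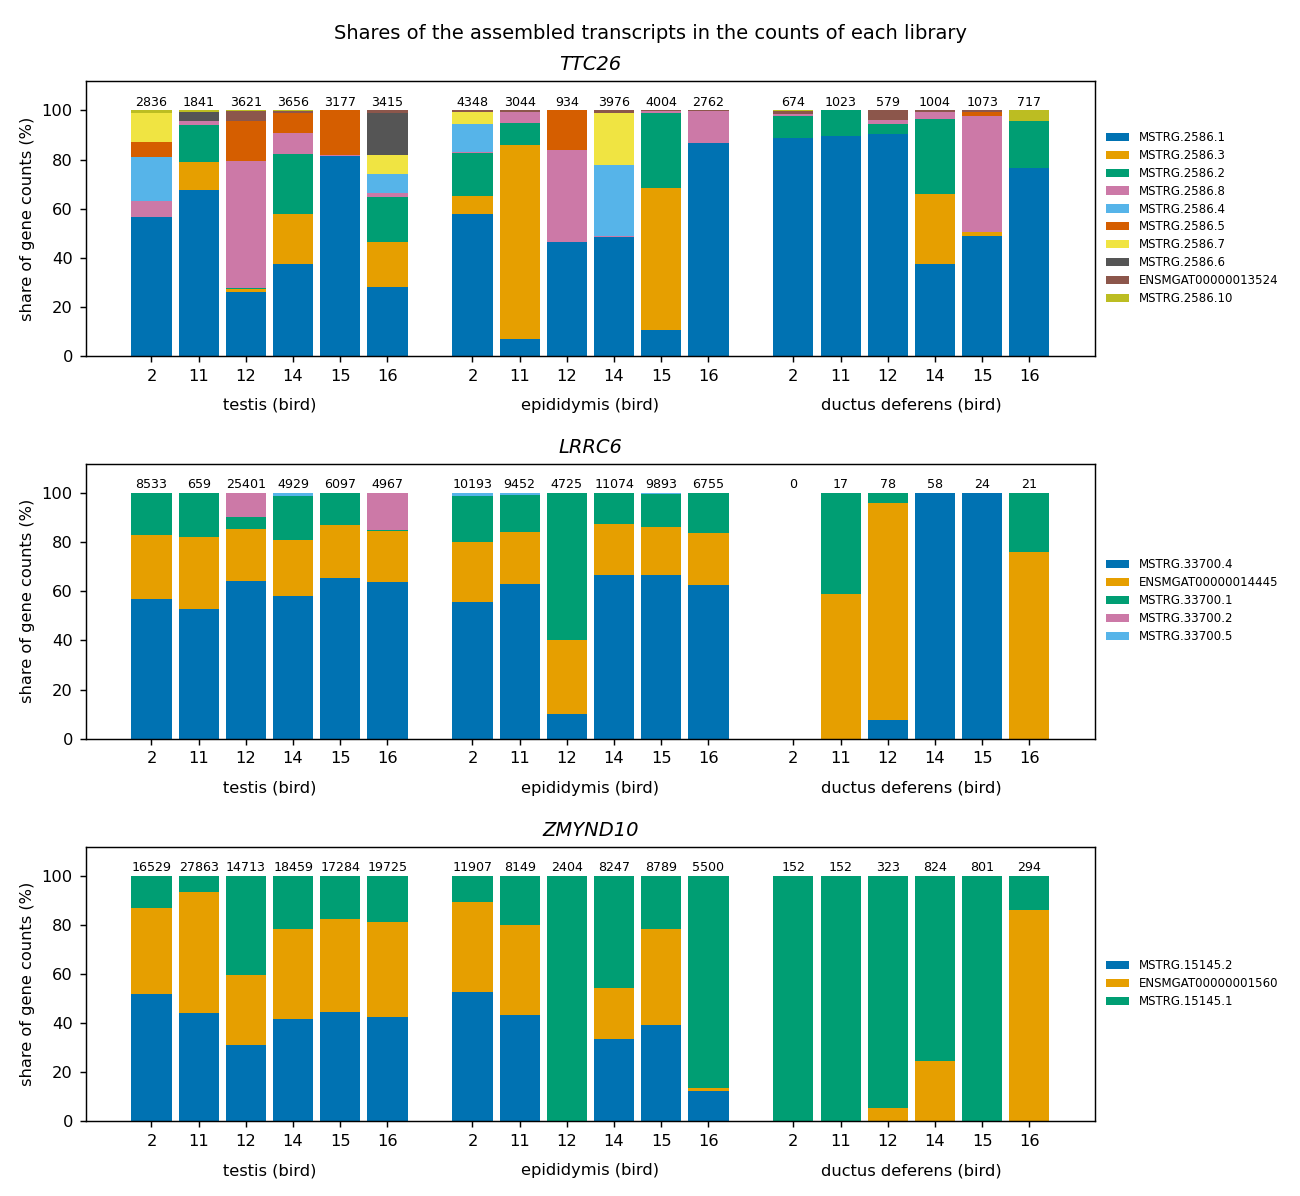
Share of each assembled transcript in the counts of TTC26, LRRC6 and ZMYND10, in percent, for each bird and tissue, with the number of gene counts above each bar. Transcript MSTRG.15145.2 of ZMYND10 has no counts in the ductus deferens and in the epididymis of bird 12, and the transcripts of TTC26 change from bird to bird within each tissue.

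In TTC26 the division of the counts between transcripts changed from bird to bird. Transcript MSTRG.2586.1 held 25.9 to 81.6% of the counts in T, 6.67 to 86.8% in E and 37.6 to 90.3% in DD. In the epididymis MSTRG.2586.3 held 79.1% in bird 11 and no counts in birds 12, 14 and 16. In the testis of bird 12 MSTRG.2586.8 held 51.6%, against as little as 0.126% in another testis. The largest difference between tissues in the share of MSTRG.2586.1 was -29.2 points, for the epididymis over the ductus deferens (exact p = 0.0996, adjusted p = 0.263). Of the 10 transcripts of TTC26, 5 passed the filter on low counts in at least 1 comparison and none of these was called, while the other 5 were not tested in any, although the gene passed in both comparisons with the ductus deferens.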

How the data were processed

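The authors sequenced stranded poly(A) libraries, used Trimmomatic for trimming, STAR for mapping to the turkey genome and StringTie for a merged annotation, the source of the MSTRG identifiers. They deposited counts per gene and counts per transcript, as whole numbers without normalization. Both tables were made together from the merged annotation. The counting tool and its strand setting are not given in the sources used here, so counts of overlapping or antisense loci are uncertain. Symbols were paired with rows through the supplementary tables of the study, which gave 83 genes. The members and lists were chosen with earlier results of these data known.

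Each comparison used the 12 libraries of its 2 tissues in edgeR 4.0.16 (R 4.3.3), with TMM, the filter on low counts, the robust quasi-likelihood test and Benjamini-Hochberg adjusted p-values over every gene tested. The methods of the study used Ballgown and Cuffdiff with the same thresholds. The SE is the absolute log2 fold change over the square root of F. CPM were normalized with TMM over the 18 libraries. Shares of transcripts left out libraries with under 20 gene counts. Named were the 5 genes, transcripts with at least 5% of the counts of their gene in a tissue, and listed genes with a symbol. The birds pair the tissues by the labels, as the same animals. Deviations from the tissue means correlated by 0.0171 (T with E), 0.00664 (T with DD) and 0.0816 (E with DD) on average in the same bird, against 0.00193, 0.000479 and -0.0104 in different birds. Alternatives were DESeq2 1.42.0, limma 3.58.1 on log2(CPM + 1), other scalings, no filter, a single fit of all 18 libraries, an adjusted p under 0.05, the bird as a block and each library left out. The removal of both libraries that stood apart was added after seeing the data. The steps were tested on simulated counts. Python 3.11.15 with scipy 1.17.1 and matplotlib 3.10.9 was used for the exact tests and figures. No promoter or protein sequences and no coordinates were used here.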

Additional observations from a re-analysis of the deposited data

Results flagged for a closer look

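The spread of the 5 genes and of 3 transcript shares was checked in 24 groups of 4 to 6 libraries for a single library far from the others, which chance gives in about 1 in 20 groups. In 2 groups such a library was found. The level of ZMYND10 in the testis of bird 11 was 406.9 CPM, and its gap to the next testis was 0.686 of the whole range. The share of MSTRG.33700.4 in the counts of LRRC6 in the epididymis of bird 12 was 10.14%, with a gap of 0.805 of the range. Both values come from the 2 libraries that stood apart over all genes.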

How the results depend on the processing

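Between the tissues, 309 of 315 recomputed fold changes of the 5 genes kept their direction and their side of the threshold, and 120 of 132 recomputed counts of called genes or transcripts were equal to those reported. For the testis over the epididymis the called genes went to 2 of the 5 and 3 of the 8 listed, with the bird as a block and without both libraries that stood apart. With the bird as a replicate block the following no longer passed: ZMYND10 for the testis over the epididymis (1.21), and PLK4 (3.43) and TTC26 (1.61) for the epididymis over the ductus deferens, where the called genes went to 3 of the 5 and 4 of the 8 listed, and the called transcripts to 0, 2 and 0 in the 3 comparisons. The block changed no other call of the 5 genes. Over all genes tested, the block lowered the calls from 10237 to 6262 of 28489 for T over E. For T over DD they went from 12470 to 10268 of 27550, and for E over DD from 1211 to 626 of 22695. Without both libraries that stood apart, 13395 of 30042 genes were called for T over E. Without a filter on low counts, 1, 5 and 1 of the 21 transcripts were called. For the blocked and the unfiltered fit the calls over all transcripts were not counted. Without the testis of bird 11 and the epididymis of bird 12, ZMYND10 for the testis over the epididymis was 0.98. TTC26 for the testis over the epididymis turned to 0.14 with DESeq2 and to 0.0384 with library size alone, settings that moved the median of all genes by 0.37 and 0.26. The cause was not tested for any of these changes, that of TTC26 included. No single library left out changed the call of any of the 5 genes.

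None of the reversed shares of transcripts had passed the test. Pairing the birds left 4 pairs for LRRC6 between the epididymis and the ductus deferens. Birds 2 and 11 dropped out, with under 20 gene counts in DD. Without their epididymides the difference in its share was -0.399 points. For ZMYND10 the paired difference of the testis over the ductus deferens stayed at 42.7 points. The sign-flip test gave it an exact p of 0.0312, the smallest that 6 pairs allow (adjusted p = 0.281). With 1 library left out, the difference in the share of MSTRG.33700.4 in LRRC6 ran from -2.73 to 8.59 points for T over E, from -8.99 to 24.3 for T over DD and from -15.1 to 18.3 for E over DD, and that of MSTRG.2586.1 in TTC26 from -0.464 to 15.6 for T over E. That of MSTRG.15145.2 in ZMYND10 for E over DD ran from 25.7 to 36.3 points. With CPM by library size alone, 18 of the 30 coefficients within tissues moved by at least 0.2. In the testis TTC26 with ZMYND10 went from 0.015 to -0.957 and PLK4 with TTC26 from 0.101 to 0.849. PLK4 with ZMYND10 there went from -0.911 to -0.869. The coefficients within tissues thus depend on the scaling, and those by library size were given no p. With Spearman's coefficient the likeness of ARMC4 was 0.814 to TTC26 and 0.864 to LRRC6.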

Other observations

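The genes listed as markers of multiciliated cells did not share one order between the testis and the epididymis. That they mark these cells in the testis, where spermatids build flagella, was not checked. RSPH9, a radial spoke protein, had 40.3 ± 11.3 CPM in T and 104 ± 44.9 CPM in E (SD, n = 6 each), with a log2 fold change of -1.32 ± 0.33 (SE, edgeR adjusted p = 0.00423). CDHR3, a cadherin of ciliated airway cells in human, had 2.80 ± 0.941 CPM in T and 32.0 ± 17.0 CPM in E (SD, n = 6 each), with a log2 fold change of -3.43 ± 0.57 (SE, edgeR adjusted p = 0.000228). Both were lower in the testis, as CCNO and DNAH5 were. TEKT2, a tektin of the microtubule doublets, had 256 ± 172 CPM in T and 28.0 ± 5.29 CPM in E (SD, n = 6 each), with a log2 fold change of 3.19 ± 0.35 (SE, edgeR adjusted p = 9.96e-06). CCDC113 had 128 ± 16.7 CPM in T and 38.4 ± 15.7 CPM in E (SD, n = 6 each), with a log2 fold change of 1.796 ± 0.33 (SE, edgeR adjusted p = 0.000434). Without the testis of bird 11 and the epididymis of bird 12 the log2 fold changes were -1.01 for RSPH9, -3.47 for CDHR3, 2.94 for TEKT2 and 1.62 for CCDC113, and all 4 were called. In T, TEKT2 had 604 CPM in bird 11, against 186 ± 20.1 CPM (SD, n = 5) in the other testes. TEKT2 and CCDC113 were higher in the testis, as PLK4 and ZMYND10 were. The study had picked these genes on the same tissues, so their directions are not independent evidence.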
